A study of Mus musculus with 12 samples.

Results

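The miRNAs held by nuclear AGO2 and by AGO2 of the total fraction were compared in mouse embryonic stem cells in which a tagged AGO2 had been switched on. Of 689 miRNA entries in the table, 378 were compared, those whose mean count reached 10 in 1 or both of the fractions. Of these, 342 reached that minimum in both fractions, 21 only in the nuclear and 15 only in the total fraction. Just inside the minimum lay miR-483, with 10 nuclear and 0.667 total reads, and miR-682, with 10 and 0.333. Just outside it lay miR-1981, with 9.67 and 7.67 reads, and miR-1188, with 8 and 9.33.

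All cells carried an AGO2 transgene with HA-Flag tags that doxycycline induces, and were grown on gelatin with leukemia inhibitory factor. Doxycycline at 2.5 ug/ml for 15 h switched on the transgene, and an anti-FLAG M2 antibody pulled the tagged protein and its small RNAs from each fraction. Of 12 libraries, 6 are compared here, 3 nuclear and 3 total, all with doxycycline. The 6 libraries from cells without doxycycline serve only to give the background of each miRNA, which is the reads found without doxycycline as a percentage of those found with it. The cells also kept their own, untagged AGO2, and only RNA held by the tagged copy was sought. The labels name the second fraction "Total" while the protocol speaks of a cytoplasmic one, so whether it held nuclei was not settled. For each group the authors deposited 1 averaged count per miRNA. No difference therefore has a replicate check, no test across libraries was run, and every interval is a 95% counting interval.

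A miRNA is cut from a hairpin precursor, and usually 1 of the hairpin's arms, the main strand, stays in an Argonaute protein while the other, marked with a star in older names, is mostly lost. Bases 2 to 8 of the miRNA, the seed, do most of the pairing with target RNAs, so miRNAs with the same seed are counted as a family. AGO2 silences messenger RNAs mainly in the cytoplasm, and it has also been found in the nucleus of mammalian cells.

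The sequences that carry the main differences are given here as RefSeq lists them on GRCm38.p6, the assembly also called mm10, in lower case with the seed in capitals. The first set shares the seed of the miR-15/16 family, and only its first member was more than 2-fold higher in the nuclear fraction. miR-15a lies at chr14:61632075-61632096 on the minus strand, in an intron of Dleu2, and miR-16 at chr14:61631936-61631957 in the same intron and at chr3:69009918-69009939 in an intron of Smc4. miR-15b lies at chr3:69009775-69009796 in the same Smc4 intron, miR-497 at chr11:70234730-70234751 and miR-195 at chr11:70235062-70235082.
miR-15a: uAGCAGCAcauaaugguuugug
miR-16: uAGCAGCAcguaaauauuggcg
miR-15b: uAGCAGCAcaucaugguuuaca
miR-497: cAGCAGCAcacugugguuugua
miR-195: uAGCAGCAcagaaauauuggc

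The second set holds further members of a shared seed that stood apart from each other. miR-32 lies at chr4:56895272-56895293, minus strand, in an intron of Tmem245, and miR-25 at chr5:138165332-138165353, minus strand, in Mcm7. miR-193 lies at chr11:79712009-79712030 and miR-193b at chr16:13449570-13449591. miR-18a lies at chr14:115043867-115043889 and miR-18b at chrX:52742381-52742403, minus strand. miR-29b lies at chr1:195037091-195037113 and chr6:31063025-31063047, and miR-29a at chr6:31062673-31062694.
miR-32: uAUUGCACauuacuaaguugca
miR-25: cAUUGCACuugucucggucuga
miR-193: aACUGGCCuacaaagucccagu
miR-193b: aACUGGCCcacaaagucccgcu
miR-18a: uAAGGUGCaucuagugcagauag
miR-18b: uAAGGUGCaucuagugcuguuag
miR-29b: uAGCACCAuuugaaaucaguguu
miR-29a: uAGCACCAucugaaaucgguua

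The third set holds both arms of miR-136 and of miR-142 and the most abundant miRNA, miR-294. The arms of miR-136 lie at chr12:109595331-109595352 and chr12:109595366-109595387, those of miR-142 at chr11:87756867-87756887 and chr11:87756903-87756925, and miR-294 at chr7:3220691-3220712.
miR-136: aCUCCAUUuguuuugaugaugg
miR-136*: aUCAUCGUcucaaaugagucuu
miR-142-5p: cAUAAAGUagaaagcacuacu
miR-142-3p: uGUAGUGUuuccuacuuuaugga
miR-294: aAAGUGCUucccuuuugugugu

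With doxycycline, the miRNA reads summed to a mean of 400794 per nuclear and 539627 per total library, and without it to 36329.9 and 16053.4. A count of 0 allowed up to 2.50 and 1.85 CPM (counts scaled to a common total) with doxycycline. It allowed up to 27.5 and 62.3 CPM without it, so the background of rare miRNAs is poorly known. Markers of other cells were listed for liver, muscle, neural, blood, and fibroblast and mesenchymal cells. Those at least 2-fold higher were miR-219 (17 nuclear and 10 total reads) of the neural list and miR-142-5p and miR-144 (12 and 6) of the blood list. At least 2-fold lower were 0 of the markers, while over all compared entries 10.3% were higher and 3.97% lower by as much. The muscle markers miR-133a and miR-133b were at 0 in the total fraction with doxycycline, and the blood marker miR-223 was at 0.333. Other members of these lists were abundant, with 2848 nuclear and 2683 total reads for the neural marker miR-124, 2354 and 2623 for the mesenchymal marker miR-21, 1479 and 2734 for the blood marker miR-142-3p and 337 and 354 for the muscle marker miR-499. The part of other cells in any result was not tested.

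AGO2 of both fractions was loaded mainly with the miRNAs of the miR-290-295 cluster, which drive the rapid cell cycle of mouse embryonic stem cells. miR-294 had 64361 nuclear and 103485 total reads, which was 16.1% of all nuclear and 19.2% of all total reads. The 5 most abundant entries took 55.0% and 58.5%, and the 10 most abundant 69.4% and 68.7%. Differences are given as log2 folds of nuclear over total reads after TMM scaling, which sets the typical miRNA of both fractions level, so 0 means no difference relative to the typical miRNA and 1 means 2-fold higher in the nuclear fraction.

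Most miRNAs differed by less than 2-fold between the fractions, and the differences that passed it with many reads and little background were few. miR-15a, miR-136, miR-136*, miR-32 and miR-297c were higher in the nuclear fraction, and miR-669d and miR-18b were lower. Without scaling, miR-32 was at 0.70 and miR-297c at 0.72, both short of 2-fold. Over all 378 entries, 39 (10.3%) were higher by 2-fold or more and 15 (3.97%) lower by as much, with a median of -0.04. The counting intervals of all of these excluded 0, and so did those of 174 of the 324 entries within 2-fold, since counting error was small. Among the 195 entries with at least 100 mean reads in a fraction, 11 (5.64%) were higher and 7 (3.59%) lower. Among the 158 of them with a background under 10% in both fractions, 5 (3.16%) were higher and 2 (1.27%) lower.

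**Figure D1:**
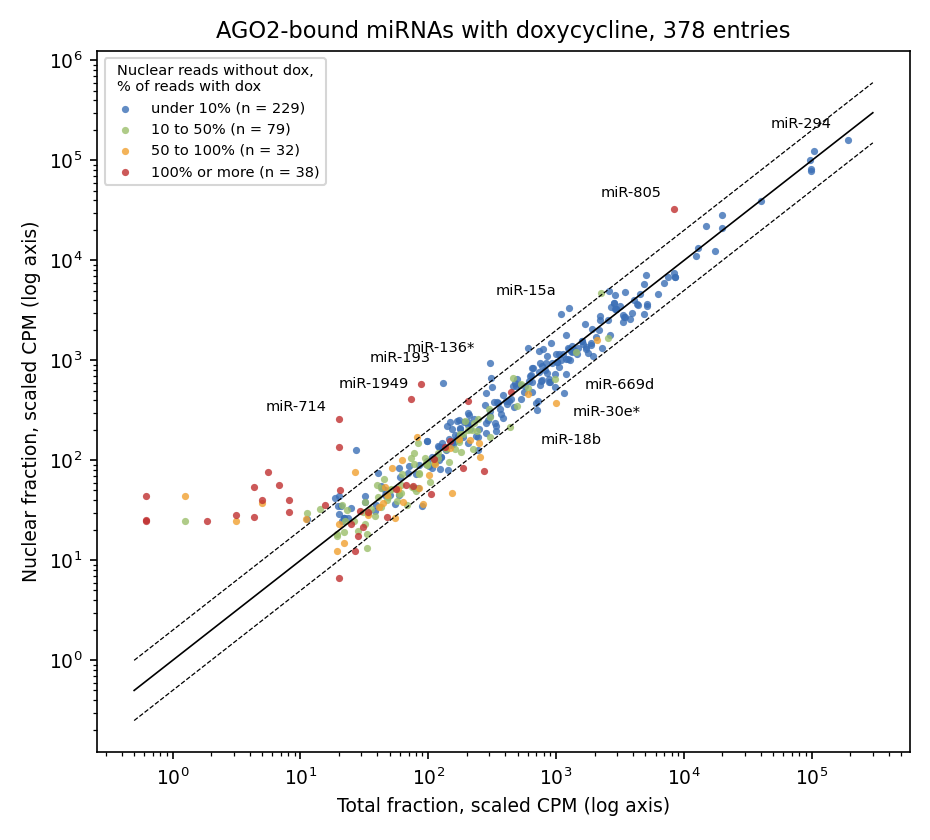
Level of each of the 378 entries in the total fraction (x axis) and the nuclear fraction (y axis), in CPM after TMM scaling on log axes, coloured by the nuclear reads without doxycycline as a percentage of those with it. The solid line marks equal levels and the dashed lines a 2-fold difference. Entries of low background lie close to the line, and most of the points far above it at low levels have a background of 50% or more.

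The spread of the folds was larger than counting error even for the most abundant miRNAs. The 55 entries with at least 1000 reads and a background under 10% had folds from -0.81 to 1.41, with an SD of 0.47, while the typical interval reached only 0.06 to either side. In the 60 entries of 300 to 1000 reads with the same low background, the SD was 0.50 and the interval 0.11. The spread between the 3 libraries of a group is not known here, so how much of this lies between fractions was not tested.

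Background separated the entries further. Of the 39 higher entries, 19 had at least as many nuclear reads without doxycycline as with it, 6 had 50 to 100%, 4 had 10 to 50% and 10 had under 10%. The 21 entries that reached the minimum only in the nuclear fraction were all among the 39, and for them the direction followed from the minimum. Of the 15 lower entries, 5 had a nuclear background of 100% or more, 5 of 50 to 100%, 2 of 10 to 50% and 3 under 10%. Among these 15, 3 reached the minimum only in the total fraction. The median nuclear background was 94.6% for the higher, 75.4% for the lower and 5.39% for the entries within 2-fold. This percentage rises as nuclear reads with doxycycline fall, so it is not independent of the fold. In the total fraction the medians were 60%, 41.6% and 2.49%.

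The higher and lower entries also stood apart from each other without doxycycline. Both fractions had at least 10 reads without doxycycline for 124 entries, where the median log2 fold of nuclear over total reads, by library totals, was -1.03. The 10 higher entries among them, which include miR-15a and miR-136 with little background, had a median of 0.69, and the 7 lower entries, all star strands, a median of -2.05. The level of these medians depends on miR-805, which held 23134 of 36329.9 nuclear and 5338 of 16053.4 total reads without doxycycline. Without miR-805 the sums were 13196.2 and 10715.4. Other totals would shift all these medians by the same amount, so only their order is read here. miR-805 had 13121 nuclear and 4494 total reads with doxycycline and 23134 and 5338 without it, at a log2 fold of 1.96 (1.93 to 1.99). miR-714 had 104 and 10.7 reads with doxycycline and 111 and 9.33 without it, and miR-677 had 164 and 39.3 with it and 322 and 52 without it. These entries had no more nuclear reads with the tagged protein than without it.

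Among miRNAs with little background, both arms of the miR-136 hairpin and miR-15a had the highest nuclear folds. miR-136 comes from the imprinted Dlk1-Dio3 region, where it is made from a transcript antisense to the gene Rtl1. Its main strand had 1173 nuclear and 586 total reads with doxycycline and 39 and 12.7 without it, a log2 fold of 1.41 (1.33 to 1.50). miR-136* had 381 and 163 reads with doxycycline and 11.7 and 6.67 without it, at 1.64 (1.48 to 1.79). Each arm was thus more than 2-fold higher, and both stayed so with the reads without doxycycline subtracted, at 1.53 and 1.78. Folds after subtraction, here and below, were scaled anew, which shifted them upward even where little was removed. miR-181c, with a background of 0.174% in nuclear and 0% in total AGO2, went from 0.75 to 0.88. Of 99 hairpins with both arms measured, miR-136 was the single one in which both arms were at least 2-fold higher, and in 0 were both lower.

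miR-15a restrains the cell cycle and survival, in part through cyclin D1 and BCL2. It had 1349 nuclear and 674 total reads with doxycycline, against 23.3 and 22.3 without it. Its log2 fold was 1.41 (1.34 to 1.49), and 1.57 after subtraction. miR-16, from the same Dleu2 intron and with the same seed, had 1381 and 1448 reads and a fold of 0.34 (0.28 to 0.41). A second copy of miR-16 in Smc4 gives the same mature sequence, and reads of the copies cannot be told apart.

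miR-32, a member of the miR-25/32/92 family, had 266 nuclear and 164 total reads with doxycycline and 4.33 and 3 without it, a fold of 1.11 (0.95 to 1.27). miR-297c of the Sfmbt2 cluster had 535 and 324 reads, at 1.14 (1.02 to 1.25), but its counts were divided between near-identical entries and its own value is uncertain. miR-19a, of the miR-17-92 cluster, came just short of 2-fold at 0.94 (0.88 to 1.00), from 2002 and 1389 reads. It was at 1.08 after subtraction, a value that includes the shift from the new scaling. Next came miR-29b at 0.78 (0.61 to 0.95), miR-181c, of a family that acts in lymphocytes, at 0.75 (0.57 to 0.93), miR-377 of the Dlk1-Dio3 cluster at 0.75 (0.64 to 0.86) and miR-30b at 0.71 (0.60 to 0.82).

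miR-193 had the largest nuclear fold of the entries with at least 100 reads and a nuclear background under 10%, but its total background was higher. It had 239 nuclear and 69.7 total reads with doxycycline against 9.67 and 10.7 without it, so its background was 4.04% in nuclear and 15.3% in total AGO2. Its fold was 2.19 (1.97 to 2.42), and 2.50 after subtraction. miR-142-5p, known from blood cells, had 1915 and 1193 reads against 236 and 101, at 1.10 (1.04 to 1.16) and 1.16 after subtraction.

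**Figure D2:**
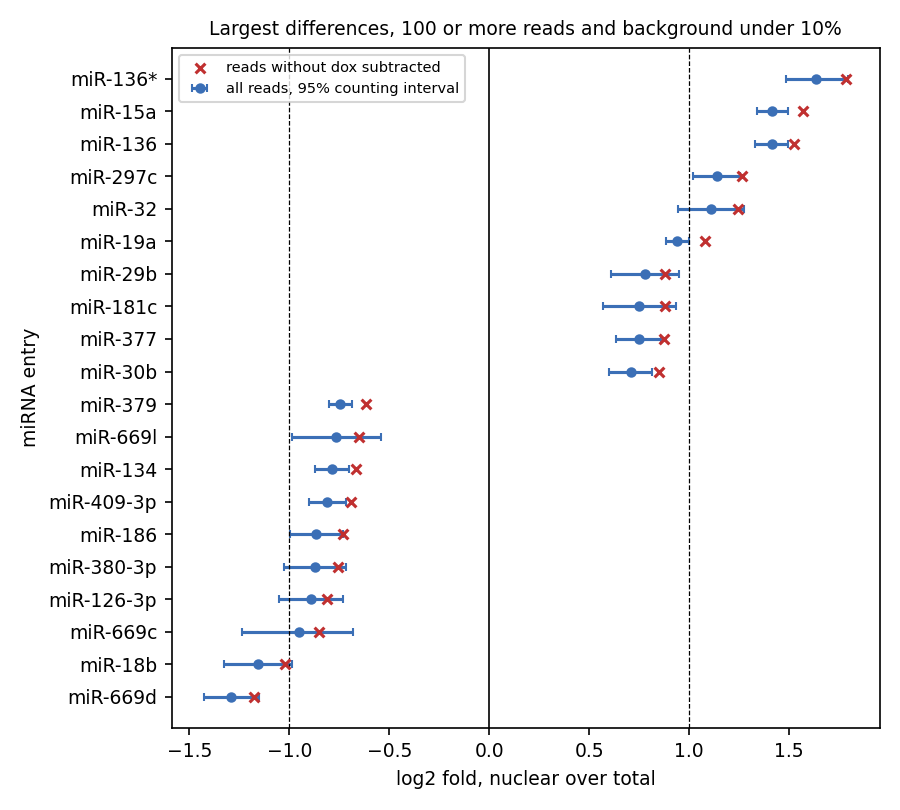
Log2 fold of nuclear over total reads (x axis) for the 10 highest and 10 lowest entries among those with at least 100 reads and a background under 10%. Circles with bars give the fold and its 95% counting interval, crosses the fold with the reads without doxycycline subtracted and scaling redone. The 5 highest lie beyond 2-fold (dashed lines) with and without subtraction, and miR-18b and miR-669d do at the low end.

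On the low side, miR-669d of the Sfmbt2 cluster had 190 nuclear and 617 total reads with doxycycline, against 3.33 and 2.67 without it. Its fold was -1.29 (-1.43 to -1.15), and its many near-copies make it uncertain. miR-18b, from the X-linked paralogue of the miR-17-92 cluster, had 127 and 377 reads with doxycycline and 0.333 and 1.17 without it, at -1.15 (-1.33 to -0.99). Both remained past 2-fold after subtraction, at -1.18 and -1.02.

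The next lowest entries lay within 2-fold. miR-669c of the Sfmbt2 cluster, also with near-copies, was at -0.95 (-1.24 to -0.68), with 50.8 and 131 reads. miR-126-3p, the endothelial miRNA made from Egfl7, was at -0.89 (-1.05 to -0.73), with 152 and 376 reads. miR-186 was at -0.86, with 218 and 528 reads. Of the Dlk1-Dio3 cluster, miR-380-3p was at -0.87 (-1.03 to -0.71), miR-409-3p at -0.81 (-0.90 to -0.72), miR-134, which acts in neurons, at -0.78 (-0.87 to -0.70) and miR-379 at -0.75 (-0.80 to -0.69). So the Dlk1-Dio3 region that held miR-136 at its upper end also held several of the lowest miRNAs. These lay apart from miR-136, in a group at chr12:109709065-109743784.

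Most families with a shared seed were within 2-fold as sums. The 93 entries with a known sequence and a seed in common with another fell into 32 groups, and the summed reads of 1 group were higher and of 2 groups lower by 2-fold or more. The higher sum was that of miR-193 and miR-193b at 1.75, and the lower ones were pairs of miR-30 star strands. The median of the 32 sums was 0.02.

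In the miR-15/16 family, the summed reads were 4904 nuclear and 4766 total, a fold of 0.45 (0.42 to 0.49) that came down to 0.04 without scaling. miR-15a at 1.41 stood above the other 5 entries with this seed. These were miR-322 at 0.35 (0.11 to 0.58), miR-16 at 0.34, miR-497 at 0.17 (0.11 to 0.23), miR-15b at 0.08 (-0.01 to 0.18) and miR-195 at -0.06 (-0.20 to 0.09). miR-503, counted in the family although its seed differs in the last base, was at 0.84 (0.51 to 1.18) from 59.7 nuclear and 44.3 total reads. As the printed sequences show, these miRNAs share the seed and differ in the bases after it.

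The family of miR-25, miR-32 and miR-92 was level as a sum, at 0.05 (0.02 to 0.08), or -0.36 without scaling. Its members spread from miR-32 at 1.11, miR-25 at 0.41 (0.35 to 0.47), miR-367 at 0.25 (0.00 to 0.50) and miR-92b at 0.17 (-0.10 to 0.44) to miR-92a at -0.13 (-0.17 to -0.09) and miR-363 at -0.32 (-0.43 to -0.22). The abundant members were thus close to the typical miRNA, with 2758 nuclear and 4024 total reads for miR-92a. The rare miR-32 was not.

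Pairs that differ in few bases also came apart. miR-193 and miR-193b share 19 of 22 bases when aligned, and miR-193b was at 0.13 (-0.29 to 0.54) from only 30.3 and 37.0 reads, against 2.19 for miR-193. miR-18a and miR-18b share 21 of 23, and miR-18a was at -0.28 from 1441 and 2330 reads against -1.15 for miR-18b. miR-7a was at 0.47 (0.42 to 0.52) and miR-7b at -0.69 (-1.16 to -0.24), the latter from 43.1 total reads.

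The members of some families lay closer together. The 6 members with the miR-17 seed, which promote proliferation, all lay between -0.45 and -0.16, and their sum was at -0.25 (-0.27 to -0.23). Both miR-19 entries were above 0, with miR-19b at 0.57 (0.55 to 0.60) and a sum of 0.63 (0.61 to 0.66), or 0.22 without scaling. miR-17, miR-18a, miR-20a and miR-19a come from the same cluster and had different folds. The 8 let-7 entries, which accumulate as cells differentiate, were spread more widely, between -1.02 and -0.04, and their sum was at -0.36 (-0.46 to -0.27). Only let-7g was past 2-fold, with 87.1 nuclear and 235 total reads and a background of 10.3% and 15.3%. It was at -0.80 after subtraction, a value that includes the shift from the new scaling.

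**Figure D3:**
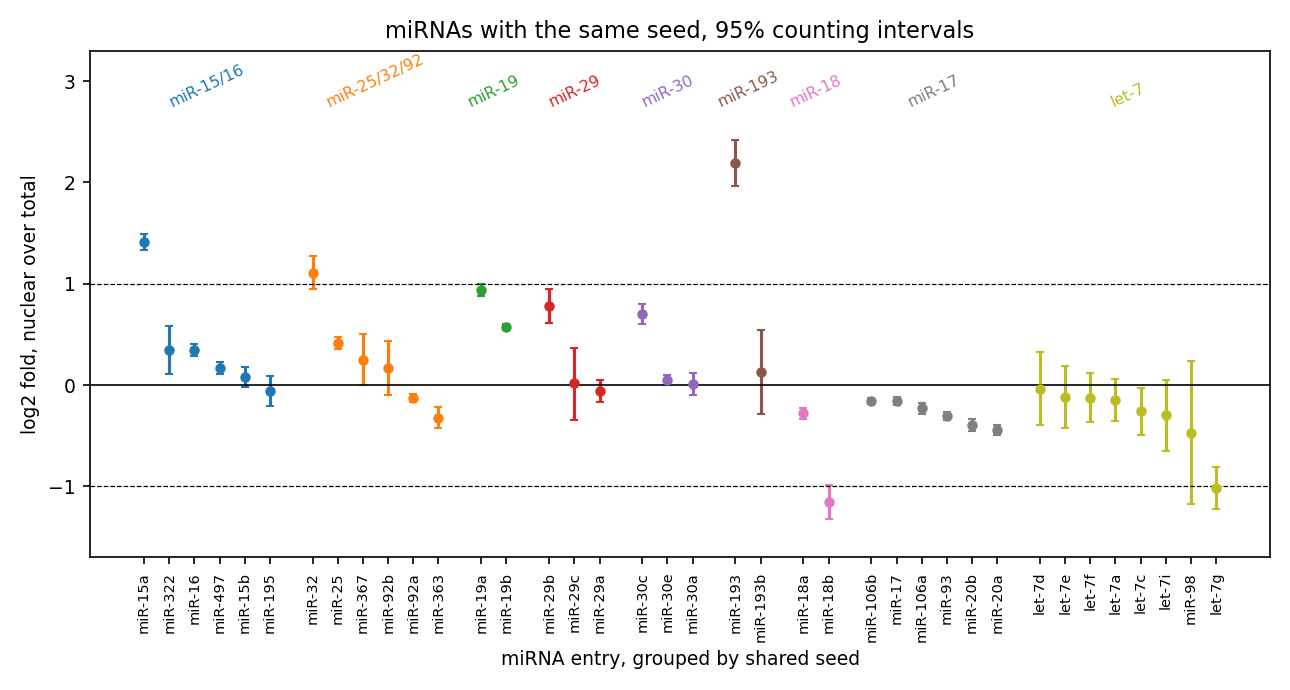
Log2 fold of nuclear over total reads (y axis) for members of 9 families that share a seed, with 95% counting intervals and a 2-fold difference as dashed lines. Within the first 2 families 1 member stands above the rest, while the members with the miR-17 seed lie close together. The part of divided reads in this closeness was not tested.

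The miR-29 family represses collagens and DNA methyltransferases, and its members were compared because human miR-29b is known from HeLa cells to be enriched in the nucleus through the bases AGUGUU at its 3′ end. The mouse sequence holds the same bases at positions 18 to 23, shown here in capitals.
miR-29b: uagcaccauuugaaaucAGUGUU
miR-29b had 218 nuclear and 170 total reads with doxycycline and 14.1 and 7.67 without it, at 0.78 (0.61 to 0.95). miR-29a had 391 and 543 reads, at -0.06 (-0.17 to 0.05), and miR-29c had 39.8 and 52.3 at 0.02 (-0.34 to 0.37). miR-29b was therefore above both relatives by more than counting error but short of 2-fold, and at 0.36 without scaling. The counts of miR-29b and miR-29c times 3 are not whole, as when reads are split between near-identical entries. The intervals do not cover such splitting, so the size of the difference is uncertain. The motif, searched on the given strand of the mature miRNA, was in 5 of 296 sequences (1.69%) and at the 3′ end of 1 of them, miR-29b. miR-142-3p holds it within the sequence and was at -0.47 (-0.53 to -0.42), and the median of the 5 was -0.25.

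Clusters transcribed together also held differing miRNAs. Entries with at least 100 reads that lay within 10000 bases of each other on 1 strand formed 13 clusters of 3 or more. In the miR-17-92 cluster at chr14:115043684-115044496, 8 entries ran from miR-20a* at -1.22, with a nuclear background of 91.7%, through miR-17* at -0.51 to miR-19a at 0.94. In the first Dlk1-Dio3 cluster, at chr12:109585818-109595387, 12 entries ran from miR-433 at -0.51 to miR-136* at 1.64 with a median of -0.08. In the second, at chr12:109709065-109743784, 26 entries ran from miR-380-3p at -0.87 to miR-377 at 0.75 with a median of -0.21. The 13 entries of miR-290-295 at chr7:3218639-3220837 spanned less, from miR-294* at -0.61 to miR-293* at 0.53.

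Described by list, 0 of 14 arms of miR-290-295 were past 2-fold (median -0.01, but 0.01 by library totals), and 0 of 6 of miR-302 and miR-367, a second stem cell cluster (median 0.06, -0.35 without scaling). miR-17-92 and its paralogues had 1 higher and 2 lower of 21 (median -0.23), and the Dlk1-Dio3 cluster 3 higher and 0 lower of 67 (median -0.11). Of 34 entries of the Sfmbt2 cluster, 3 were higher and 1 lower (median -0.02, but 0.02 with median-of-ratios factors). These shares lie near or under the 10.3% higher and 3.97% lower of all entries, apart from the 2 lower of 21. The third higher entry of the Dlk1-Dio3 list was miR-544, with 10.3 nuclear and 6 total reads.

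The families and marker lists that follow are small, and 1 or 2 called members in them say little beside the 10.3% higher and 3.97% lower of all entries. Among families, let-7 had 0 higher and 1 lower of 8 (median -0.20) and miR-15/16 had 1 higher of 7 (median 0.34, -0.07 without scaling). miR-25/32/92 had 1 higher of 6 (median 0.21, -0.20 without scaling), and both miR-19 entries were within 2-fold (median 0.76). All entries lay within 2-fold for the main strands of miR-30 (5 entries, median 0.16, -0.25 without scaling), miR-29 (3, median 0.02, -0.39) and miR-130 and miR-301 (4, median 0.11, -0.30). The same held for the miR-200 family (5, median 0.13, -0.28 without scaling), the cluster of miR-96, miR-182 and miR-183 (4, median -0.18), and the Drosha-independent miRNAs (3, median 0.17, -0.25 without scaling). Marker lists gave 1 higher of 4 neural entries (median 0.24, -0.18 without scaling), 2 higher of 6 blood entries (median 0.17, -0.24) and 0 past 2-fold of 3 liver (median -0.11), 1 muscle (0.34, -0.07) and 7 fibroblast and mesenchymal entries (median -0.23).

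Star strands made up 10 of the 15 lower entries and had more background than other entries. Of 68 star strands 3 (4.41%) were higher and those 10 (14.7%) lower, with a median of -0.21. Of 310 other entries 36 (11.6%) were higher and 5 (1.61%) lower, with a median of 0.00. The median nuclear background was 39.2% for star strands and 5.08% for the others. Of the star strands, 13 had a background under 10% in both fractions, and their median was -0.01. The lowest with at least 100 reads were miR-27a*, with 31.7 nuclear and 147 total reads against 70 and 139 without doxycycline, at -1.80 (-2.13 to -1.48), and miR-30e*, with 151 and 537 against 103 and 293, at -1.42 (-1.57 to -1.27).

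The ratio of the arms of 1 hairpin needs no scaling between fractions. The arm counted was the star strand, or the less abundant arm where names carry no star; miR-485*, miR-154* and miR-140* were the more abundant arms of their hairpins in both fractions. Over 99 hairpins the share of that arm was relatively higher in the nuclear fraction for 47 and lower for 52, with a median change of -0.06 on the log2 scale. It was 2-fold or more higher for 3 and lower for 10. In the 23 hairpins with a background under 10% for both arms, 16 were higher and 7 lower, the median was 0.47 and 0 were past 2-fold. These 23 were chosen in part by the nuclear reads that also set the fold, and they include pairs without a star name. They also repeat divided reads, as miR-467a* and miR-467d* had the same counts, 62.9 nuclear and 51.9 total. Whether the lean towards lower star strands goes with background was therefore not tested.

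The leading arm of miR-142 was not the same in both fractions. miR-142-5p made up 56.4% of the hairpin's reads in nuclear and 30.4% in total AGO2, a change of 1.57 (1.49 to 1.65), and 1.59 after subtraction. Its partner miR-142-3p had 1479 and 2734 reads, so the arms differed in opposite directions. The background was 12.3% in nuclear and 8.44% in total AGO2 for miR-142-5p, and 8.70% and 3.01% for miR-142-3p. In the miR-290-295 cluster miR-293* made up 25.9% of its hairpin in nuclear and 16.8% in total AGO2, a change of 0.79 (0.77 to 0.81). miR-291a-5p went the other way, with 9.11% and 14.4%, a change of -0.75 (-0.78 to -0.72). The arms of miR-293 and miR-291a each had at least 5033 reads and a background of at most 6.71%.

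For miR-15a and miR-193 the main strand was higher and the star strand was not. miR-15a* had 28.7 nuclear and 54.3 total reads, against 28 and 12 without doxycycline, and took 2.08% of its hairpin in nuclear and 7.46% in total AGO2. miR-193* had 11 and 25.7 reads, against 30.3 and 40.7 without doxycycline, and took 4.40% and 26.9%. The nuclear reads of both star strands were thus at background, in contrast to both arms of miR-136.

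**Figure D4:**
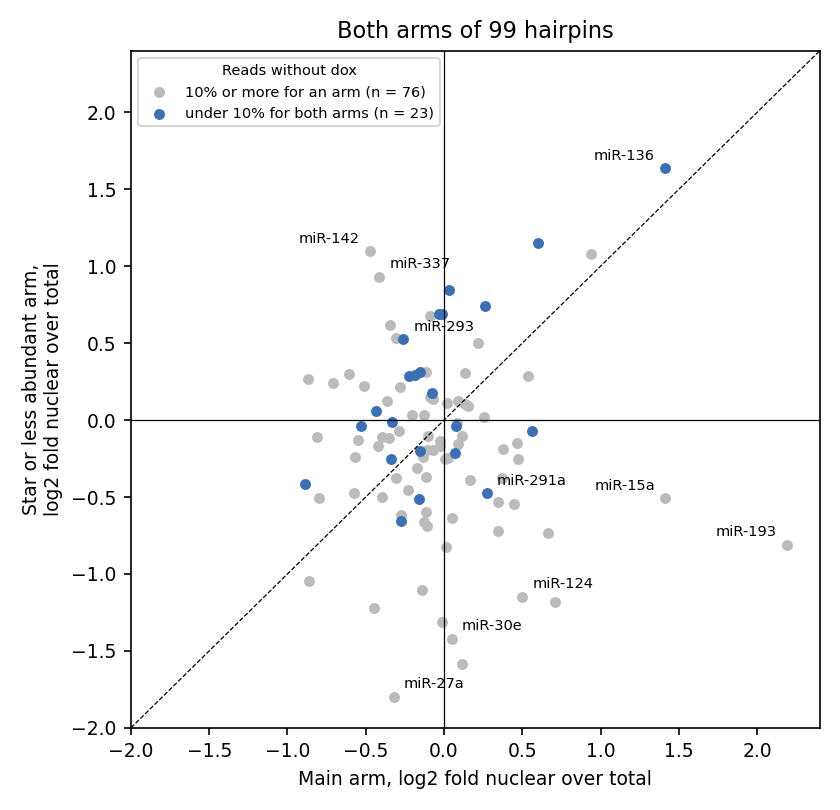
Log2 fold of nuclear over total reads for the main arm (x axis) and the star or less abundant arm (y axis) of 99 hairpins, with 23 hairpins of low background for both arms in blue. The dashed line marks equal folds. miR-136 lies high on both axes, miR-142 and miR-293 above the line, and miR-15a and miR-193 far below it.

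Across entries with at least 100 reads, 158 of 195 (81.0%) had a sequence, and folds were slightly lower for sequences richer in G. Pearson's r was -0.32 with the G content and -0.25 with the content of G and C (Spearman's rho -0.37 and -0.31, n = 158 miRNAs that share libraries, clusters and families). For the content of G and C it was 0.02 in the seed and -0.28 in the rest of the miRNA, and with length it was -0.02. The median fold was 0.08 for the 43 miRNAs with 36 to 41% of G and C and -0.23 for the 34 with more than 50%. These differences are small beside the spread of single miRNAs. In the 130 with a background under 10%, r was -0.33 with G and -0.28 with G and C. Over all compared entries r was -0.17 with G and -0.04 with G and C, but only 296 of 378 (78.3%) had a sequence and the check is void there. After subtraction r was -0.07 and -0.12 over 156 miRNAs, with rho at -0.28 and -0.29.

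**Figure D5:**
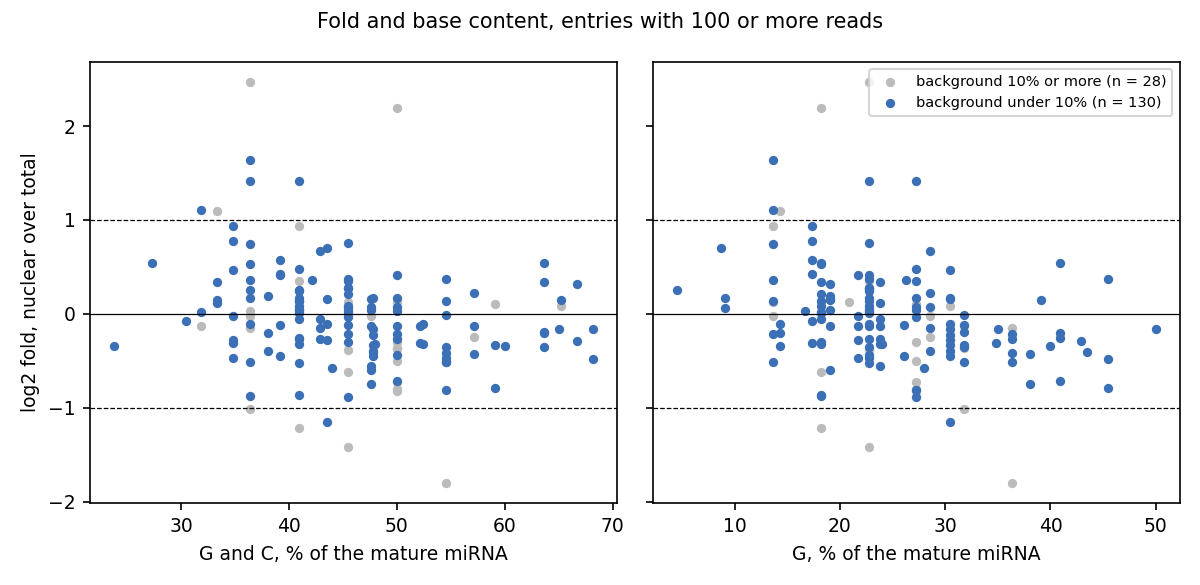
Log2 fold of nuclear over total reads (y axis) against the percentage of G and C (left) and of G (right) in the mature miRNA, for 158 miRNAs with at least 100 reads. Blue points have a background under 10% in both fractions and grey points do not, and dashed lines mark a 2-fold difference. The points spread widely at every base content, with r of -0.25 on the left and -0.32 on the right.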

How the data were processed

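Small RNAs from AGO2 immunoprecipitates were sequenced. The tools named in the submitters' processing notes are TopHat and bcl2fastq 2.17.1, with mm10 as the build. The counting step is not given in the sources used here. The deposited table holds estimated counts per miRNA entry, which the authors averaged to 1 column per group. That each is a mean of 3 libraries was inferred from the values, which are whole after multiplication by 300. Some values times 3 are not whole, as when a read is split between near-identical entries.

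The planned tests of edgeR and DESeq2 need counts per library and were not run. Mean counts of entries with at least 10 in 1 of the 2 columns were scaled with TMM (edgeR 4.0.16, R 4.3.3). Folds have 95% Clopper-Pearson intervals on 3 times the mean count, rounded, and arm ratios a normal approximation. Intervals and floors (3 reads over the 3 libraries of a group) cover counting error only, since PCR copies carried no molecular identifiers. A 2-fold difference is a rule of size, not a test. Subtraction removed the reads without doxycycline as deposited, and folds after it were scaled anew. Whether the smaller sums without doxycycline reflect sequencing depth or less RNA pulled down cannot be told apart. The procedure was run on simulated counts that held counting error only, the error that the intervals assume. That run cannot show how the intervals do with spread between libraries, background or divided reads.

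RefSeq mature sequences were matched by hand from older miRBase names to 296 of 378 entries. Sequences missing for the other 82, such as miR-30b, are not shown. Contexts are from the GRCm38 annotation. Names were drawn from the 10 most abundant entries and the 10 highest and 10 lowest with at least 100 reads. The same was done for entries with background under 10%. Further names came from leading members of lists and seed groups, hairpins with the largest arm changes, and the miR-29 family. Others were named as examples after their values were seen. Not all of these are described above. Among those left out, miR-1949 was at 2.73 with a nuclear background of 121%, and miR-124* at -1.15 with 323%. The members, lists and rules were chosen with earlier results of these data known. Tables were handled in Python 3.11.15 with pandas 2.3.3 and numpy 2.4.6, intervals came from SciPy 1.17.1 and plots from matplotlib 3.10.9.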

Additional observations from a re-analysis of the deposited data

How the results depend on the processing

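The count of entries at least 2-fold higher in the nuclear fraction, 39, became 18 with a minimum of 10 reads in both fractions, 13 with a minimum of 100, 170 with no minimum, 15 with the reads without doxycycline subtracted and 8 with entries of at least 10% background left out. The count of lower entries, 15, became 44 without scaling, 6 with a minimum of 100, 50 with no minimum, 31 after subtraction and 3 with entries of at least 10% background left out. The median over all entries was -0.04 and went to -0.46 without scaling. Pearson's r with the content of G and C went from -0.25 to -0.039 over all compared entries, where 78.3% had a sequence against 81.0%, under the share needed for the check. Of the 39, only 14 had a value after subtraction and new scaling, so the other calls could not be followed. All 14 stayed past 2-fold, as did 10 of the 12 lower entries with a value. Without scaling 28 of the 39 stayed past 2-fold. Library totals and median-of-ratios factors kept all 39, and 15 and 14 of the lower entries. The splits of hairpins and of base content by background, and the restriction to 65 pairs of a star and an unstarred name (median change -0.11, 0 higher and 9 lower by 2-fold or more), were chosen after the data were seen. In the low-background hairpins the median change was 0.47, against -0.06 over all 99. Several list medians near 0 changed sign without scaling, as given beside them. No paired analysis was possible because the table gives 1 mean column per group. The replicate block, leaving out single libraries and DESeq2 were therefore not run. With 16053.4 reads per library in the total fraction without doxycycline, the background of entries with few reads is the least certain value.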
